A study of Mus musculus with 4 samples.

Results

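The filamins, alpha-actinins, talins, vinculin and zyxin are proteins that crosslink actin filaments or tie them to integrins, the cell surface receptors for matrix. Members were every probe set of the array whose sole gene symbol in the platform annotation was Flna, Flnc, Actn1, Actn4, Tln1, Tln2, Vcl or Zyx. There were 17 such probe sets for 8 genes, among 45037 non-control probe sets and 18193 genes with a probe set of their own. RNA was measured on 4 Affymetrix mouse arrays, with 2 of pseudopodia and 2 of cell bodies, all from NIH/3T3 cells, a fibroblast line derived from mouse embryos. All cells sat without serum on a porous membrane that carried fibronectin on its lower face only. They sent protrusions through the pores for 1 h before 10 min of fixation in 0.3% formaldehyde. In every extract the crosslinks were undone by 45 min at 70 °C ahead of RNA isolation. Each sample is the fraction scraped from 1 face of the membrane after the opposite face had been wiped clean, and holds many cells. The samples of a compartment are called independent in the design text without mention of separate cultures. The p-values therefore reflect the spread among these 4 samples, which could be technical.

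Cells pull on fibronectin through focal adhesions, where integrins in the membrane meet bundled actin on the inside. Talin binds the integrin tail and actin, vinculin strengthens that link, alpha-actinin and filamin hold actin filaments together, and zyxin gathers where the filaments are under tension. Some mRNAs are known to gather in the protrusions of fibroblasts, and the question of the arrays is which RNAs make up a different share of protrusions than of cell bodies. In bulk fractions, the number of cells that gave RNA and the RNA from each cell cannot be told apart. A lower intensity here is a lower share of the RNA hybridised.

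Filamin and vinculin mRNAs were lower in pseudopodia, at every probe set of these 3 genes. The alpha-actinins had log2 differences of -0.51 to -0.21, none past the test, and the values of zyxin overlapped between compartments. The log2 differences of the talin 1 probe sets ran from -1.52 to 0.052. Differences were tested by limma on log2(intensity + 1) over all 22519 probe sets whose mean reached the median of the array, with Benjamini-Hochberg adjustment at 0.05, and 11.7% of the probe sets were called, 7.44% as lower in pseudopodia and 4.30% as higher. Of the 17 member probe sets, 16 were tested, 6 fell and 0 rose. Among the 13 that were above the filter in both compartments, 4 fell. Another 3 were above it in cell bodies only, so that they could pass mainly by being high there, and 2 of these fell. The median log2 difference was -0.34 for those 13 and -1.52 for these 3 (-0.42 for the 16 together), beside -0.0038 over all probe sets tested. Over the 16105 probe sets with a mean intensity of at least 100 the median was -0.030. Members were not matched to other probe sets by intensity. Levels of different probe sets are not set against each other, since probes differ in how well they bind.

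Flna encodes filamin A, the widespread filamin that crosslinks actin into networks and also binds integrin tails. Its probe set, 1426677_at, read 2827 and 2972 on the pseudopodia arrays, against 5931 and 5351 on the cell body arrays. Both pseudopodia values lay below both cell body values. The log2 difference was -0.96 (SE 0.15, 95% interval -1.34 to -0.57, adjusted p = 0.0298), so that the pseudopodia level was 51.5% of that in cell bodies.

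Flnc encodes filamin C, best known from muscle, where it sits at the Z-discs and at the attachment of myofibrils. The brighter of its probe sets, 1449073_at, had intensities of 987 and 1114 in pseudopodia, against 2240 and 2385 in cell bodies. The dimmer one, 1447812_x_at, had 571 and 616 in pseudopodia, against 1280 and 1518 in cell bodies. The compartments were apart at both. The log2 differences were -1.14 (SE 0.15) and -1.23 (SE 0.16), each with an adjusted p of 0.0260. Probe sets with an ID that ends in _x_at, _s_at or _a_at can match several transcripts, and the plain _at probe set of Flnc had a difference of similar size. Muscle markers were dim in these cells: of 8 listed, 2 were tested and 0 were called. The summed intensity of all 8 was 307 to 371 in pseudopodia and 288 to 309 in cell bodies. Myog and Myh3 were at the lowest deposited value of 20 on all 4 arrays.

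**Figure D1:**
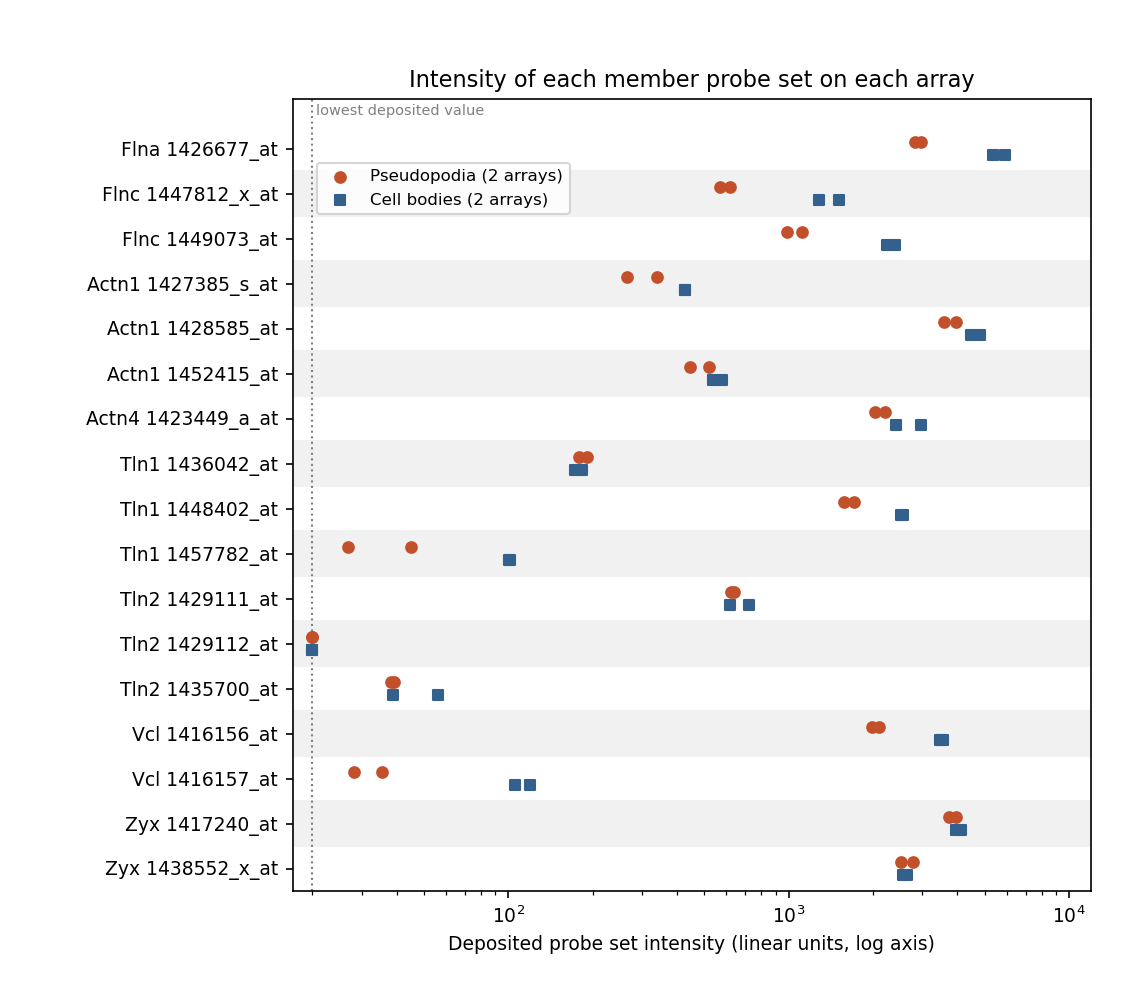
Each row is 1 probe set and each point 1 array, with pseudopodia as circles above and cell bodies as squares below, on a log axis of deposited intensity. The circles lie left of the squares for Flna, Flnc and Vcl, and the compartments overlap for Zyx and Tln2. The dotted line marks the lowest deposited value, 20.

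Actn1 and Actn4 encode the non-muscle alpha-actinins, rod-shaped dimers that bundle actin in stress fibres. The brightest probe set of Actn1, 1428585_at, read 3964 and 3594 in pseudopodia, against 4455 and 4819 in cell bodies. That of Actn4, 1423449_a_at, read 2212 and 2029 in pseudopodia, against 2414 and 2963 in cell bodies. Pseudopodia were the lower compartment at each, by a margin close to the spread between arrays of the same compartment. The log2 difference was -0.30 for Actn1 (SE 0.15, adjusted p = 0.270) and -0.34 for Actn4 (SE 0.17, adjusted p = 0.277).

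The other probe sets of Actn1 lay the same way. At 1427385_s_at the intensities were 338 and 265 in pseudopodia, against 425 and 426 in cell bodies, and at 1452415_at they were 520 and 444 in pseudopodia, against 535 and 580 in cell bodies. Their log2 differences were -0.51 (SE 0.18, adjusted p = 0.146) and -0.21 (SE 0.16, adjusted p = 0.449). All 4 alpha-actinin probe sets thus had arrays that did not overlap between compartments. Over all 22519 tested probe sets 59.6% had no such overlap, 30.9% with pseudopodia below and 28.7% with pseudopodia above, so this is common. Among the 16 tested members, 11 had pseudopodia below and 0 had pseudopodia above. The 11 were 9 of the 13 above the filter in both compartments and 2 of the 3 above it in cell bodies only. Several are probe sets of the same gene, and at the brightest probe set of each gene 6 of 8 had pseudopodia below. The 95% interval for Actn4, -0.79 to 0.12, still allows a loss of the size seen at the brighter Vcl probe set.

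Vcl encodes vinculin, which binds talin and actin and is recruited to adhesions under load. Its bright probe set, 1416156_at, had intensities of 1980 and 2099 in pseudopodia, against 3538 and 3469 in cell bodies. Arrays of 1 compartment differed by far less than the compartments did. The log2 difference was -0.78 (SE 0.14, 95% interval -1.15 to -0.41, adjusted p = 0.0374), a pseudopodia level 58.2% of that in cell bodies. A dim probe set of Vcl, 1416157_at, read 35.4 and 28.1 in pseudopodia, against 119 and 106 in cell bodies. Its difference was -1.80 (SE 0.18, adjusted p = 0.0241). This probe set passed the filter on low values only through cell bodies, and its pseudopodia values lie not far above the lowest deposited value of 20, so its size is less certain than that of the bright probe set.

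Promoter sequences of the genes that fell at every probe set, a choice made from these results, are shown as description. They come from RefSeq on GRCm38.p6, and the promoter table used here matched 7 of the 8 genes. Each runs from 250 bases before the gene's start to 50 after it, in lower case, 5′ to 3′. Capitals mark a CArG box, the DNA site of serum response factor, a regulator of many cytoskeletal genes, and GGAATG or its reverse complement CATTCC, the core bound by TEAD factors. The window of Vcl is chr14:20929148-20929447 (plus strand), that of Flna is chrX:74246485-74246784 (minus strand) and that of Flnc, the outermost of 2 starts, is chr6:29432903-29433202 (plus strand).
Vcl: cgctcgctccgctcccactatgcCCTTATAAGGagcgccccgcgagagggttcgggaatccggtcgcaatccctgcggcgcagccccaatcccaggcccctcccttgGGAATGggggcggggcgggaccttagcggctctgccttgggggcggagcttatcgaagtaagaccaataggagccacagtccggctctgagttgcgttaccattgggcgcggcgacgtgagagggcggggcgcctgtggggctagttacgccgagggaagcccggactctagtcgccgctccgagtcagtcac
Flna: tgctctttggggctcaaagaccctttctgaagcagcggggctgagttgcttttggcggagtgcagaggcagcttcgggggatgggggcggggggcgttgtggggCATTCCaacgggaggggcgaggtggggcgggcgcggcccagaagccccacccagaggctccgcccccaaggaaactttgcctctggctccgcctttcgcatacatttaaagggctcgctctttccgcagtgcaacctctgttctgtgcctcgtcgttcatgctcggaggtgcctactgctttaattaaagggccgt
Flnc: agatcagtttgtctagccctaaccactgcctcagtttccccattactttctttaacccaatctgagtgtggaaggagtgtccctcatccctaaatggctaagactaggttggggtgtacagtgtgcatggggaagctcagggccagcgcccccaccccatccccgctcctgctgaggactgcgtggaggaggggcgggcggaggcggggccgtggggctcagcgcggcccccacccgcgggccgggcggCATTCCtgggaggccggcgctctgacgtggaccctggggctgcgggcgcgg
Vcl held a CArG box whose first base lies 227 bases before the start, and a GGAATG that begins 143 bases before it. These motifs do not overlap in any of these windows. On either strand, a CArG box was in 1 of the 7 members' windows and in 1.63% of 32851 promoters. GGAATG was in 4 of the 7, namely Flna, Flnc, Actn4 and Vcl, and in 14.7% of all promoters. Members were counted at 1 start per gene, while the 32851 promoters can hold several starts of a gene. These matches describe the letters only, and their part in the differences was not tested. Pseudopodia and cell bodies were fractions of the same cell line.

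Tln1 encodes talin 1, the main talin of fibroblasts and the protein that switches integrins on. The brightest of its 3 probe sets, 1448402_at, read 1706 and 1578 in pseudopodia, against 2518 and 2558 in cell bodies. The values did not overlap, and the pseudopodia level was 64.7% of that in cell bodies. The log2 difference was -0.63 (SE 0.14, 95% interval -1.001 to -0.26), which just missed the threshold (adjusted p = 0.0582). It passed when each gene was represented by its brightest probe set alone (adjusted p = 0.0411 over 11320 genes). So it did with a filter at a mean intensity of 100 (0.0286), a pseudocount of 16 (0.0440) and a variance prior following the mean (0.00381). It did not pass with quantile normalization (0.0851), median centring (0.0674), plain _at probe sets alone (0.0719) or the replicate number as a block (0.0610). Nor did it pass without the filter on low values (0.116). With 1 array left out, its difference ran from -0.68 to -0.57.

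The other talin 1 probe sets lay on either side of that value. At 1436042_at, intensities were 191 and 178 in pseudopodia, against 183 and 173 in cell bodies, and the compartments overlapped. The log2 difference there was 0.052 (SE 0.14, 95% interval -0.32 to 0.43, adjusted p = 0.850). At the dim 1457782_at they were 26.7 and 44.8 in pseudopodia, against 101 and 102 in cell bodies, with a difference of -1.52 (SE 0.27, adjusted p = 0.0375). The last value, like that of the dim Vcl probe set, passed the filter only through cell bodies, and its pseudopodia arrays differed from each other by 0.72 on the log2 scale. The differences among the 3 probe sets were not tested. Which part of the transcript each probe set reads was not analysed here.

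Tln2 encodes talin 2, a paralog found in muscle and brain as well as in other tissues. Its brightest probe set, 1429111_at, had intensities of 624 and 640 in pseudopodia, against 720 and 619 in cell bodies. The pseudopodia values fell inside the range of the cell body values. The log2 difference was -0.079 (SE 0.15, 95% interval -0.48 to 0.33, adjusted p = 0.783). A dim probe set, 1435700_at, read 38.3 and 39.0 in pseudopodia, against 56.2 and 38.9 in cell bodies (log2 difference -0.27, adjusted p = 0.483). The remaining one, 1429112_at, was at 20 on all 4 arrays and was not tested. The difference between talin 1 and talin 2 was not tested.

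Zyx encodes zyxin, a LIM domain protein that moves to stretched actin filaments and recruits Ena/VASP proteins. Its bright probe set, 1417240_at, read 3730 and 3967 in pseudopodia, against 3961 and 4105 in cell bodies. Its other one, 1438552_x_at, read 2516 and 2776 in pseudopodia, against 2567 and 2633 in cell bodies. The compartments overlapped at both. The log2 differences were -0.068 (SE 0.14, 95% interval -0.44 to 0.30, adjusted p = 0.797) and 0.024 (SE 0.15, 95% interval -0.36 to 0.40, adjusted p = 0.936). The sign of the first turned with quantile normalization, at 0.062, and that of the second with median centring, at -0.010. Neither interval reaches the differences measured for Flna or Flnc, while the difference between Zyx and those genes was not itself tested.

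**Figure D2:**
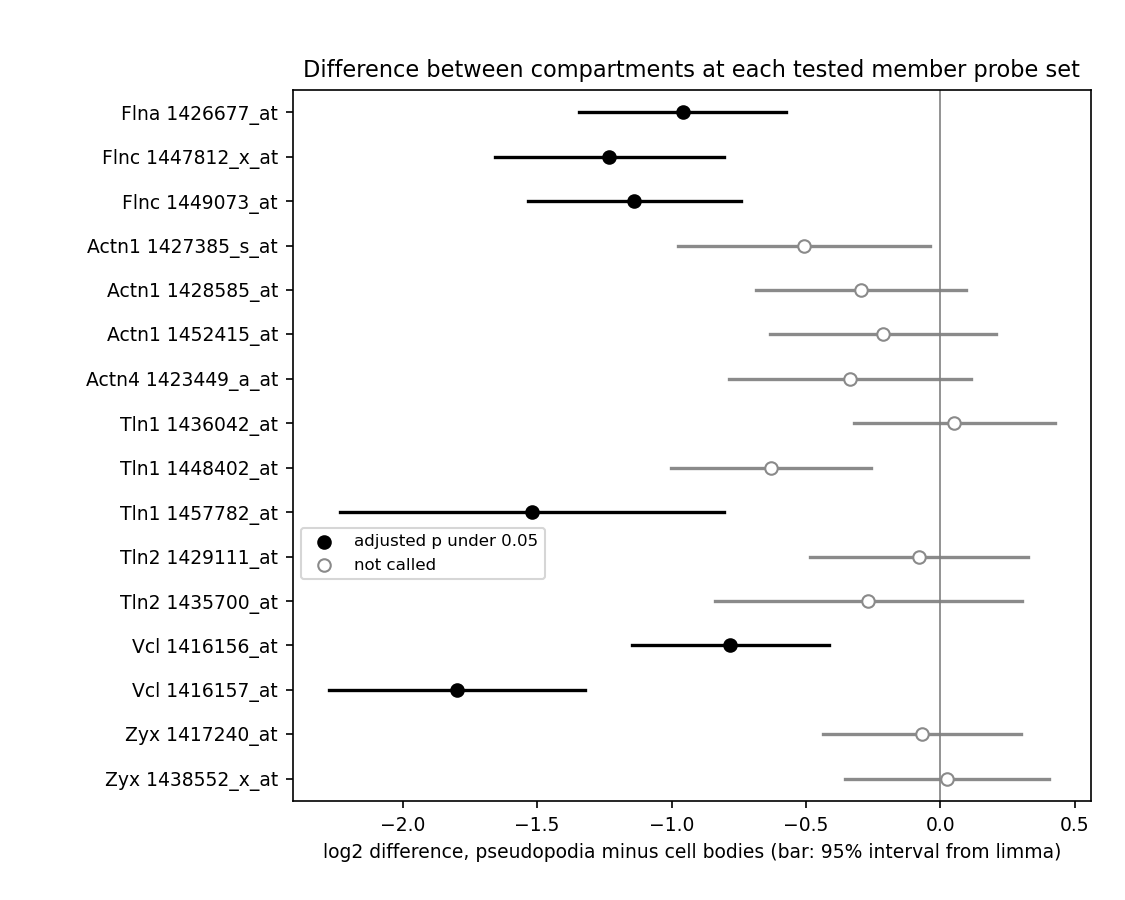
Each row is 1 of the 16 tested probe sets, with the log2 difference of pseudopodia minus cell bodies as a point and its 95% interval from limma as a bar. Filled points, those of Flna, Flnc, Vcl and the dim probe set of Tln1, passed an adjusted p of 0.05. The open points run from -0.63 for the bright Tln1 probe set to 0.052.

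The calls rest on the 4 arrays together. With any 1 array left out, 0 of the 6 called member probe sets passed, as did 0 of 22519 probe sets, while 4627 to 5816 had an unadjusted p under 0.05 (6652 with the full set). Without the filter on low values 0 member probe sets and 73 of 45037 in all were called. The 6 differences kept their sign with each array left out. That of Flna ran from -1.03 to -0.88, that of the bright Vcl probe set from -0.82 to -0.74 and that of the bright Flnc probe set from -1.23 to -1.05.

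**Figure D3:**
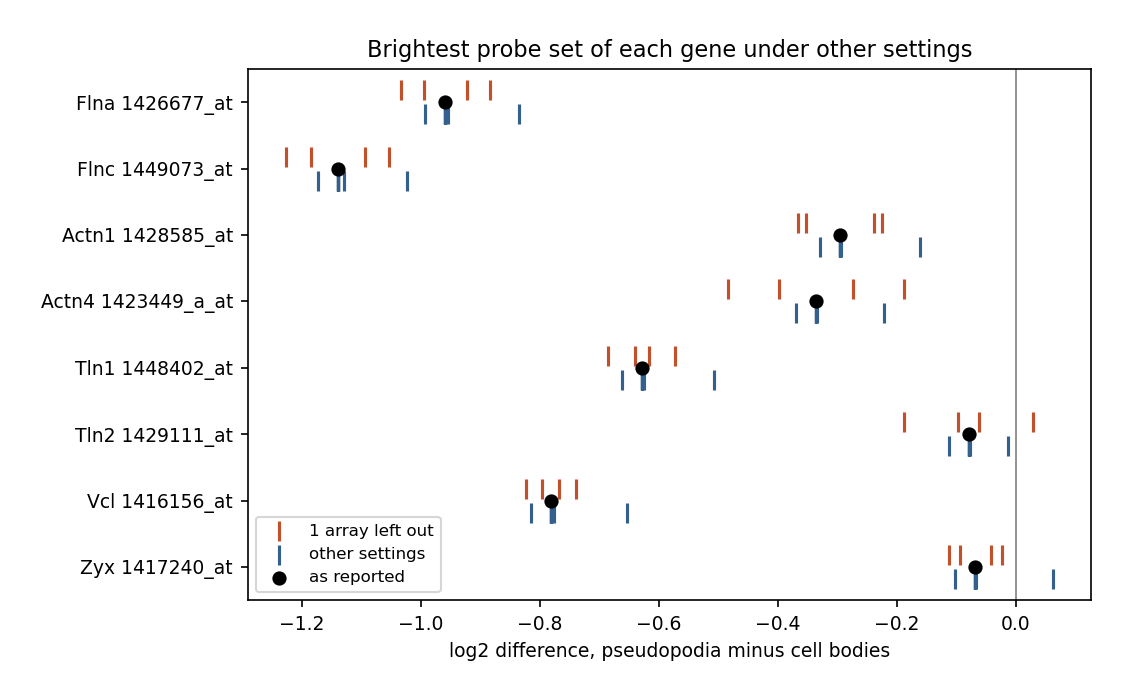
The log2 difference of pseudopodia minus cell bodies at the brightest probe set of each gene, as reported (black point), with 1 array left out (upper marks) and under the other settings (lower marks). Under the settings shown, Flna, Flnc, Actn1, Actn4, Tln1 and Vcl stay below 0, while Tln2 and Zyx lie on both sides of it.

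The genes nearest to 3 of the members over the 4 arrays were sought by the Euclidean distance between log2 values centred on each gene's mean, among 11319 other genes. For Flna they were Slc35b1, at a distance of 0.017, Btd at 0.029 and Marveld1 at 0.034. For Vcl they were Slc20a1 at 0.037, Abcb10 at 0.041 and Layn at 0.048. For Tln1 they were Pdcd11 at 0.039, Zbtb39 at 0.047 and Rtn4 at 0.049. With 4 arrays in 2 compartments, such likeness rests mostly on 1 difference.

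Related genes were counted at their brightest probe set in the same fit, where 6.89% of 11320 genes were called lower in pseudopodia and 4.25% higher. Among other actin crosslinkers and bundlers, 23 of 32 listed genes were tested, of which 2 rose and 0 fell, with a median of -0.044. Palld encodes palladin, an actin bundler that binds alpha-actinin. Its intensities were 2144 and 2216 in pseudopodia, against 965 and 994 in cell bodies. It rose by 1.15 (SE 0.14, adjusted p = 0.0241), and a second probe set by 1.39. Pls3, the bundler plastin 3, read 1291 and 1086 in pseudopodia, against 706 and 658 in cell bodies, and rose by 0.80 (SE 0.16, adjusted p = 0.0475). That call was lost when only probe sets with a plain _at ID were tested (adjusted p = 0.0506), and both calls were lost without the filter (0.0620 for Palld and 0.175 for Pls3, with the same differences) or with any 1 array left out. The differences then ran from 1.13 to 1.18 for Palld and from 0.67 to 0.92 for Pls3, where limma called 0 probe sets of the whole array, against 4627 to 5816 at an unadjusted p under 0.05. Fscn1, the filopodial bundler fascin and the brightest of the list, had a log2 difference of -0.14 (adjusted p = 0.572). The 2 calls were 8.70% of the 23 genes tested, beside 4.25% of all genes called higher. Filamins were called lower, and whether crosslinkers as a group differ from other genes was not tested.

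Among other integrin-actin linkers and adaptors, 28 of 33 listed genes were tested, of which 1 rose and 3 fell, with a median of -0.034. The 3 that fell were integrin subunits. Itga5, which pairs with Itgb1 in the fibronectin receptor, fell by 1.73 on the log2 scale (SE 0.17, adjusted p = 0.0241), as did Itgb5, at -1.20 (SE 0.20, adjusted p = 0.0323), and Itgb1, at -1.07 (SE 0.17, adjusted p = 0.0311). Kank2, which binds talin beside adhesions, rose by 1.54 (SE 0.15, adjusted p = 0.0241). These 4 calls were lost without the filter, at an adjusted p of 0.117 for Itga5, 0.185 for Itgb5, 0.158 for Itgb1 and 0.0938 for Kank2 with the same differences, and with any 1 array left out, where 0 probe sets of the array passed. The brightest of the list, the catenin Ctnna1, had a difference of 0.021 (adjusted p = 0.944). Among zyxin relatives and other LIM proteins of stress fibres, 19 of 23 were tested and 0 were called in either direction. Their median was 0.011, and the differences ran from -0.41 to 0.64. Lasp1, the brightest of them, had a difference of -0.058 (adjusted p = 0.837).

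**Figure D4:**
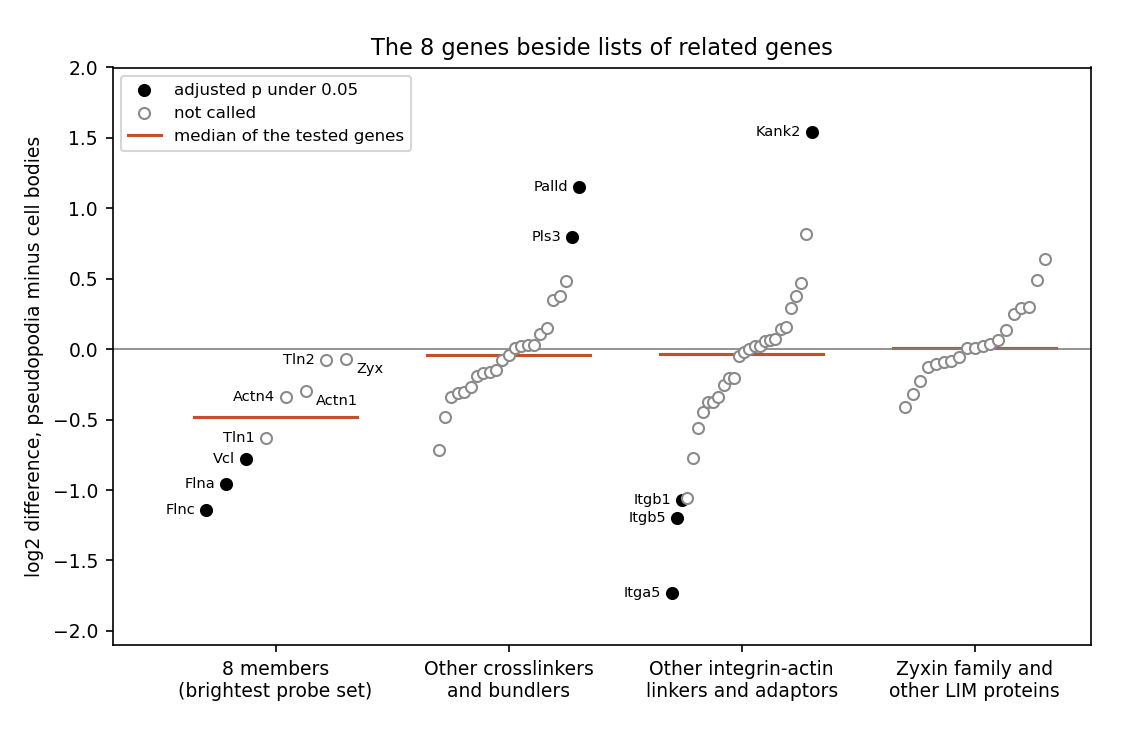
Each point is the brightest probe set of 1 tested gene, by its log2 difference of pseudopodia minus cell bodies, for the 8 members and 3 lists of related genes, ordered by value within a list. Filled, named points passed an adjusted p of 0.05 (all members are named) and red lines are medians, at -0.48 for the members and at -0.044, -0.034 and 0.011 for the lists.

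Of other measures, some differed between the compartments and some overlapped. Marker sums here take in every listed marker on the array, tested or not. For 12 fibroblast markers the summed intensity was 62543 to 63263 in pseudopodia and 83972 to 92016 in cell bodies. Of these markers 10 were tested, of which 5 fell and 0 rose. Those that fell were Col1a1, with a log2 difference of -1.33, Pdgfrb at -1.21, Pdgfra at -1.18, Sparc at -0.84 and Col1a2 at -0.69, beside -1.23 to -0.96 at the called filamin probe sets. The 5 not called were Col3a1 at -1.05, Fn1 at -0.64, S100a4 at -0.12, Vim at -0.098 and Lgals1, the brightest, at -0.095 (adjusted p = 0.711). Of the same markers Thy1 was at 20 on all 4 arrays and Postn on 3. The ratio of 3' to 5' signal of the Actb control probe sets was 1.47 and 1.57 in pseudopodia, against 1.29 and 1.28 in cell bodies. That of Gapdh was 0.950 and 0.955 in pseudopodia, against 0.936 and 0.935 in cell bodies. The ratio of pyruvate carboxylase overlapped, at 6.10 and 5.00 in pseudopodia, against 5.82 and 4.77 in cell bodies. The ratio of 18S ribosomal RNA lay the other way, at 5.51 and 2.54 in pseudopodia, against 6.81 and 8.31 in cell bodies. Of 9 epithelial markers 6 were tested and 0 called, with a summed intensity of 2673 to 2765 in pseudopodia and 3005 to 3832 in cell bodies, most of it from a probe set of Krt14. Of 9 haematopoietic markers 3 were tested and 0 called, at sums of 387 to 410 in pseudopodia and 377 to 389 in cell bodies. Of 7 endothelial markers 1 was tested and not called, at 193 to 260 in pseudopodia and 185 to 217 in cell bodies. Both pseudopodia arrays were scanned before both cell body arrays, on 1 day and 1 scanner, so scan order and compartment cannot be told apart. The part of these measures in the differences of the member genes was not tested.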

How the data were processed

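The authors deposited linear probe set intensities, with a column for each array. The sources used here do not state how probes were summarised or arrays scaled, or with which software. Every array had a lowest value of 20, shared by 30.5% to 34.8% of non-control probe sets. Median intensities of 40.5 to 45.6 led to no further scaling. The array run records, whose entries are as deposited, show 1 chip lot, 1 fluidics station and 1 scanner; the number of arrays limits precision. Gene symbols came from GEO's platform annotation (34945 probe sets with 1 symbol, 932 with several, 9160 with none), and all 8 member gene IDs matched RefSeq symbols.

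Here, log2(intensity + 1) was fitted by limma 3.58.1 in R 4.3.3 (lmFit, eBayes, no covariate, 2 residual and 2.70 prior degrees of freedom) for the 22519 non-control probe sets with a mean log2 value of at least 5.42, and each log2 difference is pseudopodia minus cell bodies. Percentages of a level are antilogs of that difference. A permutation test of 1 probe set cannot give a p under 0.333 with 4 arrays, and none was run. Members and lists were chosen with earlier results of these data known. Named genes are all members, the brightest tested gene and up to 5 called genes per direction of each of the 3 lists of related genes, and the 3 nearest genes of Flna, Tln1 and Vcl; cell type markers fall outside this rule and were named after their values were seen. Alternatives were the brightest probe set per gene, 2 filters, 2 normalizations, a pseudocount of 16, unique probe sets, a trended prior, the replicate number as a block, and leaving out each array.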

Additional observations from a re-analysis of the deposited data

How the results depend on the processing

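Over all probe sets, 2645 were called; the brightest probe set per gene gave 1654 genes, no filter on low values gave 73 and a variance prior with a trend gave 4440. Each left-out array gave 0. Of the members, 6 were called, and 0 without the filter or with any array left out. Without the filter the differences were unchanged, at -0.96 for Flna, -1.14 and -1.23 for Flnc, -1.52 for Tln1, and -0.78 and -1.80 for Vcl. Both the variance prior and the adjustment then took in all 45037 probe sets (adjusted p = 0.0877 to 0.240). Their parts in the lost calls were not separated. The trended prior also called the brightest Actn1 probe set, at -0.30. With quantile normalization that difference was -0.16 and that of Actn4 -0.22, neither of them called. Flna and the bright Flnc and Vcl probe sets were then at -0.83, -1.02 and -0.65, each still called. The median over all tested probe sets was 0.041 in that setting. The bright Tln1 probe set, at -0.63, or -0.62 with a pseudocount of 16, passed under the 4 settings named above. With 1 array left out, values ran from -1.03 to -0.88 for Flna, from -1.23 to -1.05 and from -1.35 to -1.11 for Flnc, from -1.88 to -1.16 for the dim Tln1 probe set, and from -0.82 to -0.74 and from -1.96 to -1.64 for Vcl. Reversed values were those of Zyx, at 0.062 with quantile normalization, and at -0.010 with median centring for its other probe set (from -0.047 to 0.094 with an array left out, below 0 without pseudopodia replicate 2), and of Tln2 (from -0.19 to 0.029 with an array left out, above 0 without cell body replicate 1); none was called, and the causes were not tested.

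Among other crosslinkers, 0 genes were called without the filter or with an array left out, 1 among unique probe sets and 6 with the trended prior. Among linkers these counts were 0, 0, 2 and 8, and the median moved to -0.20 with the filter at 100, 0.018 with quantile normalization, -0.068 with median centring and from -0.21 to -0.094 with an array left out. Among LIM proteins 1 gene was called with the trended prior, and the median was 0.11 with quantile normalization. The replicate numbers carry no stated pairing. Deviations from the compartment mean correlated at 0.33 between arrays of the same number, across probe sets. With the replicate number as a block, 3350 probe sets and the same 6 member probe sets were called.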
